A study of Mus musculus with 8 samples.

Results

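The 5 protein-coding genes *Mast4*, *Sox6*, *Dock4*, *Tcf12* and *Lipc* were examined in the differential ATAC-seq peaks of E10.5 mouse hearts, and they held 24 of the 2745 WT-enriched and 23 of the 12991 *Chd4-CMko*-enriched peaks. The genes were chosen by their number of WT-enriched peaks in these lists, so that number describes the choice and is not a finding. A peak was assigned to a gene when the nearest transcription start site (TSS) of a protein-coding gene was that gene's, or when the peak lay within 10 kb of the gene body, using GENCODE M21 on mm10. WT-enriched means at least the authors' fold-change cutoff more accessible in WT hearts, and *Chd4-CMko*-enriched the reverse.

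There were 8 samples, 4 of WT control littermates and 4 of *Chd4-CMko* hearts. *Chd4-CMko* embryos carried floxed *Chd4* and Cre driven from *Tnnt2*, so the deletion was directed to cardiomyocytes, while the whole hearts assayed also held cells that keep CHD4. The E10.5 cross stated for the study's histology had *Chd4* fl/fl mothers, whose embryos all inherit a floxed allele, while the alleles of the WT samples of this assay are not given in the sources used here. Each sample pooled the hearts of several embryos, 4 by the sample protocol and 3 by the series design, and embryos of both sexes were used. The peak lists combine the samples of a genotype and hold no value per sample, so nothing here has a replicate error or a test between genotypes. The methods state a common target depth for sequencing, but the lists do not give the depth each sample reached. Heart marker genes could not be checked, since the lists hold differential peaks only. A change in accessibility and a change in the share of a cell type cannot be told apart in whole hearts.

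In ATAC-seq the transposase Tn5 cuts and tags DNA that is not covered by nucleosomes, so peaks mark accessible chromatin at promoters, enhancers and insulators. CHD4 is an ATP-dependent remodeller and the catalytic core of the NuRD complex, which slides nucleosomes and carries histone deacetylases. Of the 5 genes, *Sox6* and *Tcf12* encode DNA-binding proteins. SOX6 is a SoxD factor known for silencing embryonic globin genes in red cells and slow fibre genes in muscle, and for chondrocyte differentiation. TCF12 (HEB) is a class I basic helix-loop-helix protein, or E protein, that binds E-box sequences as a dimer with tissue-restricted partners. *Mast4* encodes a microtubule-associated serine/threonine kinase, *Dock4* a guanine nucleotide exchange factor that activates small GTPases, and *Lipc* hepatic lipase, a secreted enzyme made mainly in liver that hydrolyses lipids of circulating lipoproteins.

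The genes were proposed as those with the most WT-enriched peaks, but by the assignment rule none of them had the most. *Mast4* and *Sox6* had 6 WT-enriched peaks each, *Dock4* had 5, *Tcf12* had 4 and *Lipc* had 3. By the same rule *Gmds* had 8, *Fgfr2* and *Gm20388*, which GENCODE annotates over 2961 and 4435 kb, had 7 each, and *Bach2* had 6. By the nearest protein-coding TSS alone, the highest count was 6, shared by *Mast4*, *Sox6* and *Bach2*. Like *Dock4*, 6 other genes had 5, and 31 other genes shared the 4 of *Tcf12*. Apart from *Lipc*, the rule gave 3 WT-enriched peaks to 113 genes and 2 to 331 genes. Of 21951 protein-coding genes, 10.8% had 1 or more WT-enriched peaks and 0.724% (159 genes) had 3 or more. Nothing is read from the counts of the 5 genes against these shares, since the counts chose them.

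The sequence under the highest-scoring WT-enriched peak is given here for *Mast4*, *Sox6*, *Tcf12* and *Lipc*, because these intervals lead the WT-enriched peaks of those genes, in mm10 (GRCm38) on the + strand from 5′ to 3′. Capitals mark every match to the 14 consensus motifs listed with the motif results, on either strand.
Mast4 upstream (chr13:103494511-103494661): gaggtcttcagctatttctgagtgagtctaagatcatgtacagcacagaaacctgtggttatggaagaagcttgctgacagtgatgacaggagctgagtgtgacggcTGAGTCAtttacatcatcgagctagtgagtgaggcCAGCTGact
Sox6 downstream (chr7:115371191-115371341): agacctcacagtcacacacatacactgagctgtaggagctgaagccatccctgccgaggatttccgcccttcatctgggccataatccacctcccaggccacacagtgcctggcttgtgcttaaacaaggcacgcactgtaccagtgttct
Tcf12 intron 6 (chr9:71930886-71931036): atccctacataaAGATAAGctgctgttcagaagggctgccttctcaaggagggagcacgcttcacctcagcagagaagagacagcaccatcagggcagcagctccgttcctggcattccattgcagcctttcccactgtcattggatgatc
Lipc intron 1 (chr9:70926947-70927097): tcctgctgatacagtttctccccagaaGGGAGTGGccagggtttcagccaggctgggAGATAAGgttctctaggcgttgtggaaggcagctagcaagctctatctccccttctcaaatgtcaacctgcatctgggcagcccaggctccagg

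The *Mast4* sequence held an AP-1 and an E-box match, the *Tcf12* sequence a GATA match, and the *Lipc* sequence a KLF and a GATA match. The *Sox6* sequence held no match to these motifs.

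Peaks within 1 kb of a TSS of one of the 5 genes were also chosen for printing, after their values were seen, because they show which promoters were in either list. Capitals again mark motif matches.
Lipc promoter, WT-enriched (chr9:70951992-70952142): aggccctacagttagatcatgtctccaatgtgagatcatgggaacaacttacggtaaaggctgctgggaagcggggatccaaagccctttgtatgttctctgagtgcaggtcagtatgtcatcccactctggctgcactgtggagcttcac
Mast4 promoter, Chd4-CMko-enriched (chr13:103333900-103334050): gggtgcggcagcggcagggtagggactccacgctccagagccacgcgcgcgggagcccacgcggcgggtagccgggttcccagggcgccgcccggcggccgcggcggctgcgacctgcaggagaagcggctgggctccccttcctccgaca
Sox6 promoter, Chd4-CMko-enriched (chr7:116031032-116031182): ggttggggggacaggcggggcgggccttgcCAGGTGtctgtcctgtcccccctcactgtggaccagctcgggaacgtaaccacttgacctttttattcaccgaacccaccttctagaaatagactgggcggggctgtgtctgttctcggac
Tcf12 promoter, Chd4-CMko-enriched (chr9:72111823-72111973): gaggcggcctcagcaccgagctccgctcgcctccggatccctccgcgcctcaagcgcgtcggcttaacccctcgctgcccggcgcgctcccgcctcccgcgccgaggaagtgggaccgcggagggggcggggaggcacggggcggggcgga

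The promoter intervals differed in composition. The WT-enriched *Lipc* interval had a GC content of 51.0% and 2 CpG dinucleotides. The *Chd4-CMko*-enriched intervals of *Mast4* and *Tcf12* had a GC content of 78.1% and 78.8% with 21 and 24 CpGs, and that of *Sox6* had 60.3% and 7 CpGs. Of these 4 sequences, the *Sox6* one alone held a motif match, CAGGTG, which is the E-box CACCTG read on the other strand. Over the whole lists, 5.06% of WT-enriched peaks and 16.8% of *Chd4-CMko*-enriched peaks lay within 1 kb of a protein-coding TSS. For the 5 genes the shares were 4.17% (1 of 24, 95% Wilson interval 0.739 to 20.2%) and 13.0% (3 of 23, 4.54 to 32.1%), and both intervals include the value of the whole list. Wilson intervals cover counting error only.

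The score printed for each peak is the authors' own peak score. Its scale is not stated, so scores were ranked within a list and never set between lists. The median was 36.8 in the WT-enriched list (range 14.3 to 1139) and 62.5 in the *Chd4-CMko*-enriched list (19.0 to 696.5). Of the 24 WT-enriched peaks of the 5 genes, 13 were at or above the median of their list, and their scores ran from 21.2 to 87.3. Of the 23 *Chd4-CMko*-enriched peaks, 6 were at or above the median of theirs. Of those 6, the *Tcf12*, *Sox6* and *Mast4* promoter peaks were the highest 3.

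**Figure D1:**
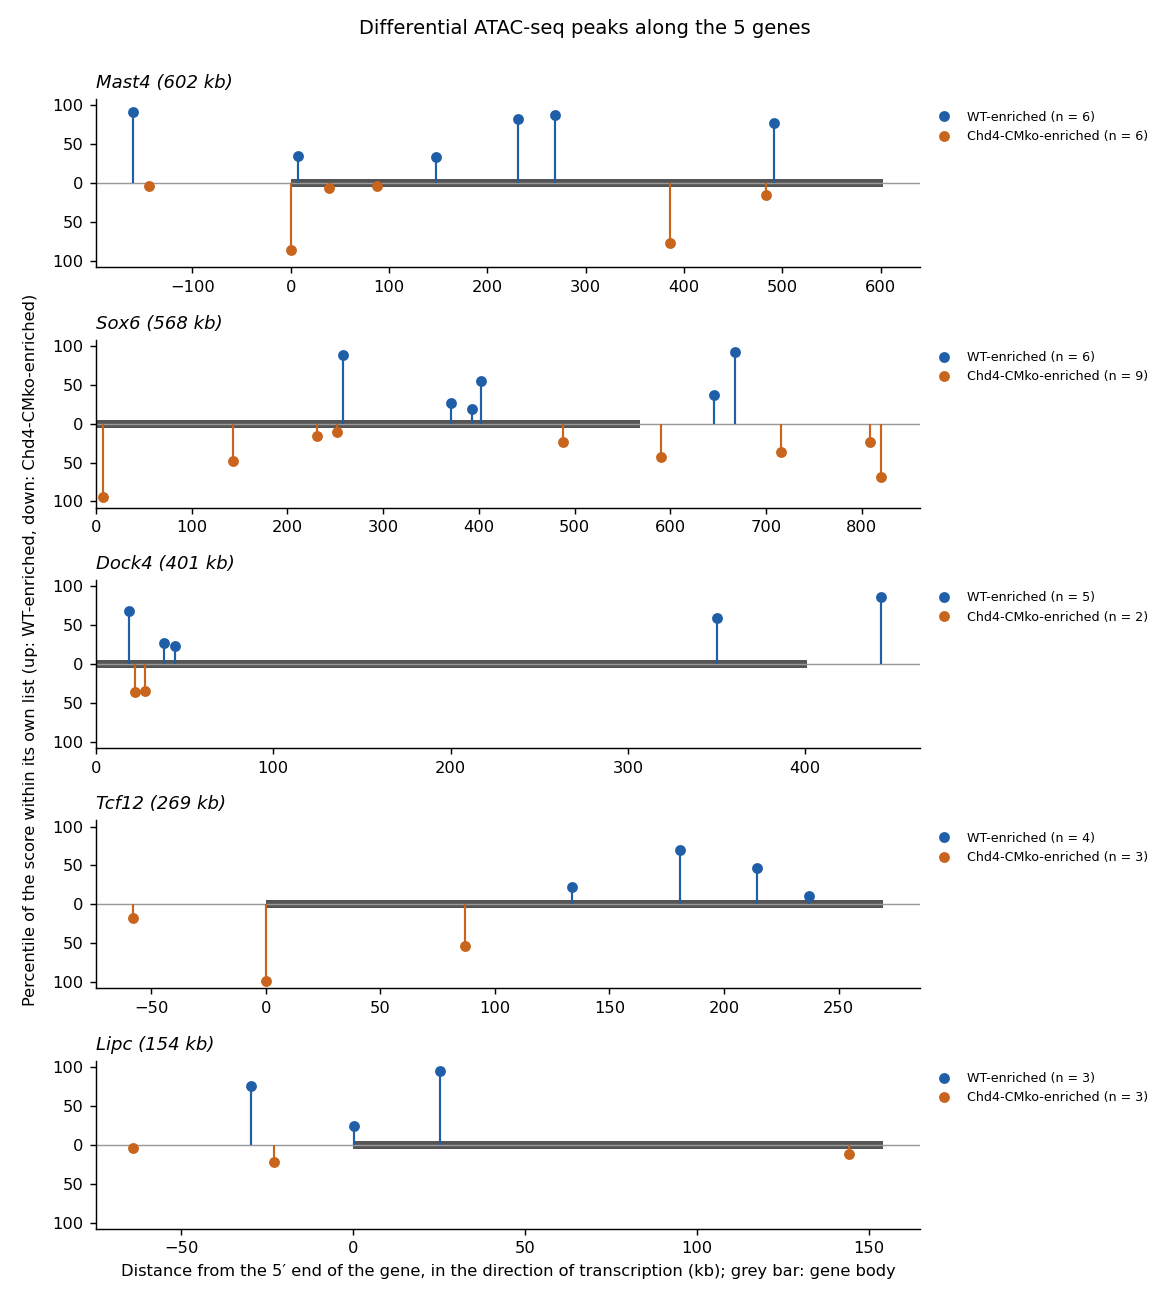
Position of every differential peak of the 5 genes, in kb from the 5′ end of the gene in the direction of transcription (x axis), against the percentile of its score within its own list (y axis, up for WT-enriched and down for *Chd4-CMko*-enriched peaks). The grey bar is the gene body, and the number of peaks per list is in each legend. The peaks at the 5′ ends of *Mast4* and *Tcf12* were *Chd4-CMko*-enriched at percentiles 86.0 and 98.4. That of *Sox6*, 7.69 kb inside its 5′ end, was *Chd4-CMko*-enriched at percentile 94.3. The one at the 5′ end of *Lipc* was WT-enriched at percentile 23.9.

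*Sox6* (chr7:115470872-116038796, minus strand, 568 kb) had 6 WT-enriched and 9 *Chd4-CMko*-enriched peaks. Of the WT-enriched peaks, 4 were in introns and 2 lay beyond the 3′ end of the gene, 78.0 and 99.5 kb from the gene body. The farther of these, printed above, had the highest score of the 6 (79.8, rank 205 of the list, percentile 92.5). The nearer one (chr7:115392704-115392854) had a score of 32.0. Both had *Sox6* as the nearest protein-coding gene, but at 205 and 227 kb from its closest TSS, which makes the assignment to *Sox6* one of distance only. The farther peak was nearer to the start of the miRNA gene model *Gm27684*, at 198918 bp.

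Within *Sox6*, the WT-enriched peak in intron 3 (chr7:115780293-115780443) had a score of 68.7 (percentile 88.1). The other intronic peaks had lower scores. In intron 5 the peak at chr7:115667972-115668122 had a score of 27.3. In intron 7 the peaks at chr7:115636497-115636647 and chr7:115645737-115645887 had scores of 38.6 and 24.5. The intron 7 peaks were 9.24 kb apart, the closest spacing among WT-enriched peaks of *Sox6*, whose median gap was 22.2 kb. No WT-enriched peak lay in the 5′ part of the gene, since the first one along the direction of transcription was 258 kb from the 5′ end.

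The *Chd4-CMko*-enriched peaks of *Sox6* began near the 5′ end. The promoter peak (score 235, rank 738 of 12991) covered the TSS of 2 protein-coding transcripts, 7.69 kb inside the 5′ end of the annotated gene. Neither of these was a principal transcript. Of the other peaks, 4 were intronic, with scores of 61.0, 34.0, 31.0 and 39.0 from 5′ to 3′. The remaining 4 lay 21.9, 148, 240 and 252 kb beyond the 3′ end, with scores of 54.5, 49.5, 39.0 and 94.5. They were 149, 275, 367 and 379 kb from the closest *Sox6* TSS, so their assignment too is one of distance only. Except for the first, they were nearer to the start of *Gm27684*, at 150803, 58279 and 46550 bp. The peak with the score of 31.0, in intron 3, was wholly soft-masked repeat sequence (100%). It stood at percentile 10.4 of its list and lay 6.99 kb from the WT-enriched peak of the same intron, which thus held peaks of both directions. Reads from repeats can be hard to place, and the part of this in the repeat peak was not tested.

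*Tcf12* (chr9:71842688-72111871, minus strand, 269 kb) had 4 WT-enriched and 3 *Chd4-CMko*-enriched peaks. All 4 WT-enriched peaks were intronic and lay in the 3′ part of the gene, between 49.6 and 88.1% of its length from the 5′ end. From 5′ to 3′ they were in introns 5, 6, 8 and 13 of the 20 introns of the principal transcript, with scores of 25.8, 45.8, 35.7 and 21.2. The highest of these was at percentile 69.3 of the list, and the lowest at percentile 10.3, the lowest standing of any WT-enriched peak of the 5 genes. Gaps between neighbours were 22.8 to 47.3 kb, a narrower range than in *Mast4*, where they were 36.9 to 224 kb. The intron 8 peak was 1153 bp from an internal *Tcf12* TSS, and it also lay within the gene model *Gm38111*.

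The *Chd4-CMko*-enriched peaks of *Tcf12* lay on the other side of the gene. The promoter peak stood highest within its own list of all 47 peaks, at percentile 98.4 (score 335, rank 204 of 12991), and covered the TSS of both principal transcripts. Another lay in intron 3 at 87.2 kb from the 5′ end (chr9:72024597-72024747, score 66.5). The last was 57.6 kb upstream of the gene (chr9:72169515-72169665, score 35.5). Thus the 3 *Chd4-CMko*-enriched peaks ended 46.4 kb 5′ of the first WT-enriched one, and the peaks of the lists were not interleaved along *Tcf12*.

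*Mast4* (chr13:102732486-103334497, minus strand, 602 kb), the longest of the 5 genes, had 6 peaks in each list. Its highest-scoring WT-enriched peak was outside the gene, 160 kb upstream (score 76.7, percentile 91.6). The start of the gene model *Gm24441* was nearer to that peak, at 73429 bp. Its assignment to *Mast4* is therefore one of distance to a protein-coding TSS only. In intron 3, which held 2 WT-enriched peaks, the scores were 58.2 (chr13:103102820-103102970) and 68.7 (chr13:103065961-103066111). The intron 5 peak (chr13:102842395-102842545) had a score of 52.0. The peaks of intron 1 had the lowest scores, 30.8 at chr13:103327202-103327352 and 30.4 at chr13:103186914-103187064. The scores had no single order by distance, since the peaks closest to a *Mast4* TSS, at 5.97 and 6.84 kb, had scores of 58.2 and 30.8.

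The *Chd4-CMko*-enriched peaks of *Mast4* had mostly low scores. The promoter peak (score 158, percentile 86.0) lay in exon 1 of the principal transcript, 410 bp from its TSS and 142 bp from the closest TSS. The intron 4 peak (chr13:102949129-102949279) had a score of 115.5 (percentile 76.7). The other 4, in introns 1 and 5 and 144 kb upstream, had scores of 26.0 to 33.5 and stood between percentiles 3.46 and 14.5. On 2 occasions a peak of each list lay close together in *Mast4*, 6.70 kb apart at the 5′ end and 8.27 kb apart in intron 5. Upstream, the peaks of the lists were 16.3 kb apart. The *Chd4-CMko*-enriched one of these was also nearer to *Gm24441* (57162 bp) than to *Mast4*.

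*Dock4* (chr12:40445952-40846874, plus strand, 401 kb) had 5 WT-enriched and 2 *Chd4-CMko*-enriched peaks. In intron 1, 3 WT-enriched peaks lay 18.4, 38.5 and 44.8 kb from the 5′ end, with scores of 45.2, 27.8 and 26.0. The 2 *Chd4-CMko*-enriched peaks (scores 48.5 and 47.5) were in the same intron, at 21.9 and 27.7 kb. They therefore lay between WT-enriched peaks, with 3.47 kb separating the nearest pair, which was the shortest distance between the lists in any of the 5 genes. The remaining WT-enriched peaks were in intron 35 (chr12:40795894-40796044, score 40.5) and 41.6 kb beyond the 3′ end (score 64.1). No peak of either list was within 1 kb of a *Dock4* TSS.

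The 2 WT-enriched *Dock4* peaks at the 3′ side were unlike the rest in sequence. Their GC content was 68.9 and 73.5%, against 42.4 to 52.3% in the intron 1 peaks. Repeats covered 60.9 and 99.3% of their bases, against 0% in the intron 1 peaks. Reads from repeats can be hard to place, and how reads with several positions were treated is not given in the sources used here. The part of this in these peaks was not tested. The downstream peak was also nearer to the pseudogene *Gm7239* (3821 bp) than to *Dock4* (94.2 kb from a *Dock4* TSS). Without peaks that were 50% or more repeat, *Dock4* had 3 WT-enriched peaks.

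*Lipc* (chr9:70798128-70952226, minus strand, 154 kb) had 3 peaks in each list. The WT-enriched peaks lay close together at the 5′ side of the gene, spanning 54.9 kb. The intron 1 peak had the highest score of all 24 WT-enriched peaks (87.3, rank 158 of 2745, percentile 94.3) and lay 7.79 kb inside the gene from the TSS of the principal transcript. The upstream peak (chr9:70981866-70982016) had a score of 50.7. The promoter peak had a score of 26.4 (percentile 23.9) and lay 17.3 kb upstream of the principal TSS, at 79 and 84 bp from the TSSs of 2 other *Lipc* transcripts, a noncoding one of 128.7 kb and a protein-coding one of 154.1 kb. It was the only WT-enriched peak within 1 kb of a TSS of any of the 5 genes.

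The *Chd4-CMko*-enriched peaks of *Lipc* had low scores of 27.0, 38.5 and 32.0, from percentile 4.6 to 22.2 of their list. Of these, 2 lay upstream, at 63.9 and 22.8 kb from the gene. The third was in intron 6 near the 3′ end (chr9:70807889-70808039), and its nearest protein-coding TSS was that of *Adam10*, at 31836 bp, a gene that encodes a membrane metalloprotease. It was the only one of the 47 peaks whose nearest protein-coding TSS was not that of the gene it was assigned to. The upstream *Chd4-CMko*-enriched peak at 22.8 kb was 6.81 kb from the upstream WT-enriched one.

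*Lipc* and *Tcf12* are neighbours on chromosome 9, separated by 890.5 kb that hold 5 other protein-coding genes (*Aqp9*, *Aldh1a2*, *Polr2m*, *Myzap* and *Cgnl1*). From the 3′ end of *Lipc* to the 5′ end of *Tcf12*, a stretch of 1.31 Mb, there were 13 WT-enriched peaks (9.90 per Mb) and 8 *Chd4-CMko*-enriched peaks (6.09 per Mb). The stretch was picked after the values were seen and its ends were set by genes chosen for such peaks, so these numbers are a description and were not set against the genome. Of the 13 WT-enriched peaks, 7 were those of *Lipc* and *Tcf12* themselves. Within the gap, 7 WT-enriched peaks were present, with scores of 16.1 to 70.7. Apart from the upstream *Lipc* peak, 2 were nearest to *Aqp9*, 2 to *Aldh1a2*, 1 to *Polr2m* and 1 to *Myzap*.

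All 5 genes had *Chd4-CMko*-enriched peaks, at a background of 37.4% of protein-coding genes with 1 or more and 16.3% with 2 or more, the lowest count among the 5. Nothing is read from this, since both lists come from the contrast that chose the genes. Long genes collect more peaks by this rule, and the 5 were long, ranking 154 (*Mast4*), 175 (*Sox6*), 351 (*Dock4*), 665 (*Tcf12*) and 1424 (*Lipc*) by length. The median protein-coding gene was 17.4 kb. Among the 1424 genes at least as long as *Lipc*, 73.3% had 1 or more *Chd4-CMko*-enriched peaks, with a mean of 2.34 and a median of 1. In this set 43.2% had 1 or more WT-enriched peaks and 7.30% had 3 or more. Across all protein-coding genes, Spearman's rank correlation between length and the number of WT-enriched peaks was 0.267, as a description, since genes are not independent replicates and longer genes have more room for peaks.

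**Figure D2:**
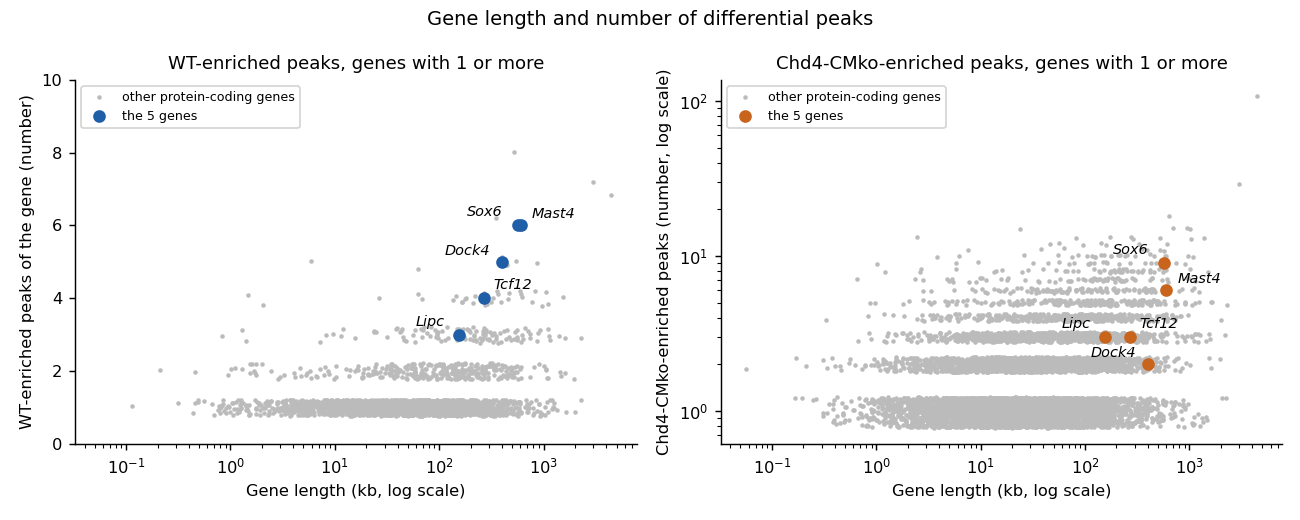
Gene length (x axis, kb, log scale) against the number of WT-enriched peaks (left, linear axis) and *Chd4-CMko*-enriched peaks (right, log axis) of each protein-coding gene with 1 or more. Grey points are other genes, shifted slightly up or down so that they do not cover each other, and coloured points are the 5 genes. The 5 genes lie at 154 kb or more, with 3 to 6 WT-enriched and 2 to 9 *Chd4-CMko*-enriched peaks.

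Per length, the gene bodies with 10 kb on each side held 9.07 WT-enriched peaks per Mb over the 5 genes together (19 peaks). *Tcf12* had the densest territory, with 13.8 per Mb, followed by *Lipc* with 11.5, *Dock4* with 9.50, *Mast4* with 8.04 and *Sox6* with 6.80. These are the counts that chose the genes divided by length, so their order is not a finding. *Chd4-CMko*-enriched peaks numbered 7.16 per Mb in these territories (15 peaks), from 4.75 in *Dock4* to 8.50 in *Sox6*. The selection raises the first of these densities, so it was not compared with the value of the genome.

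Most WT-enriched peaks of the 5 genes were intronic. In all, 18 of 24 were in introns, 1 in an exon, 2 upstream and 3 downstream of the gene. The share inside the gene was 79.2% (Wilson interval 59.5 to 90.8%), against 57.7% of all WT-enriched peaks inside some protein-coding gene. That rule differs from the one for the 5 genes, since it takes any gene and no peak outside genes, and the 5 were chosen as genes with many peaks, so the shares are set side by side without a test. Of the 23 *Chd4-CMko*-enriched peaks, 12 were intronic, 3 exonic, 4 upstream and 4 downstream, and 65.2% were inside the gene (44.9 to 81.2%), against 54.6% of that whole list inside some protein-coding gene. The median distance to a protein-coding TSS was 20.0 kb for the WT-enriched peaks of the 5 genes and 25.7 kb in the whole list. For the *Chd4-CMko*-enriched peaks it was 37.3 kb, against 15.4 kb in the whole list.

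To see whether peaks of opposite direction lay near each other, distances between the lists were measured. No WT-enriched peak of the 5 genes had a *Chd4-CMko*-enriched peak with its centre within 1 kb, while 5 of 24 (20.8%, Wilson interval 9.24 to 40.5%) had one within 10 kb. In the whole WT-enriched list the shares were 0.583% and 9.91%, and the interval of the 5 genes includes the latter. The 5 were 2 in *Mast4* and 1 each in *Sox6*, *Dock4* and *Lipc*, with the distances given above. *Tcf12* had none within 10 kb.

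The base composition of the WT-enriched peaks was close to that of their list. Their GC content was 51.5% ± 7.26 (SD over 24 peaks), against 50.5% ± 5.85 over all WT-enriched peaks. By gene the mean was lowest in *Tcf12* (47.0%), followed by *Mast4* (49.3%), *Sox6* (51.6%), *Lipc* (51.7%) and *Dock4* (57.6%), where the 3′ repeat peaks raised it. The *Chd4-CMko*-enriched peaks of the 5 genes had a GC content of 53.5% ± 9.58 (SD over 23 peaks), against 56.7% ± 8.55 in that list. Their 2 GC-richest members were the *Tcf12* and *Mast4* promoter peaks. Of the WT-enriched peaks, 16 of 24 had no repeat bases (66.7%), compared with 60.2% in the list, and 2 of 24 (8.33%) were 50% or more repeat, compared with 7.14%.

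**Figure D3:**
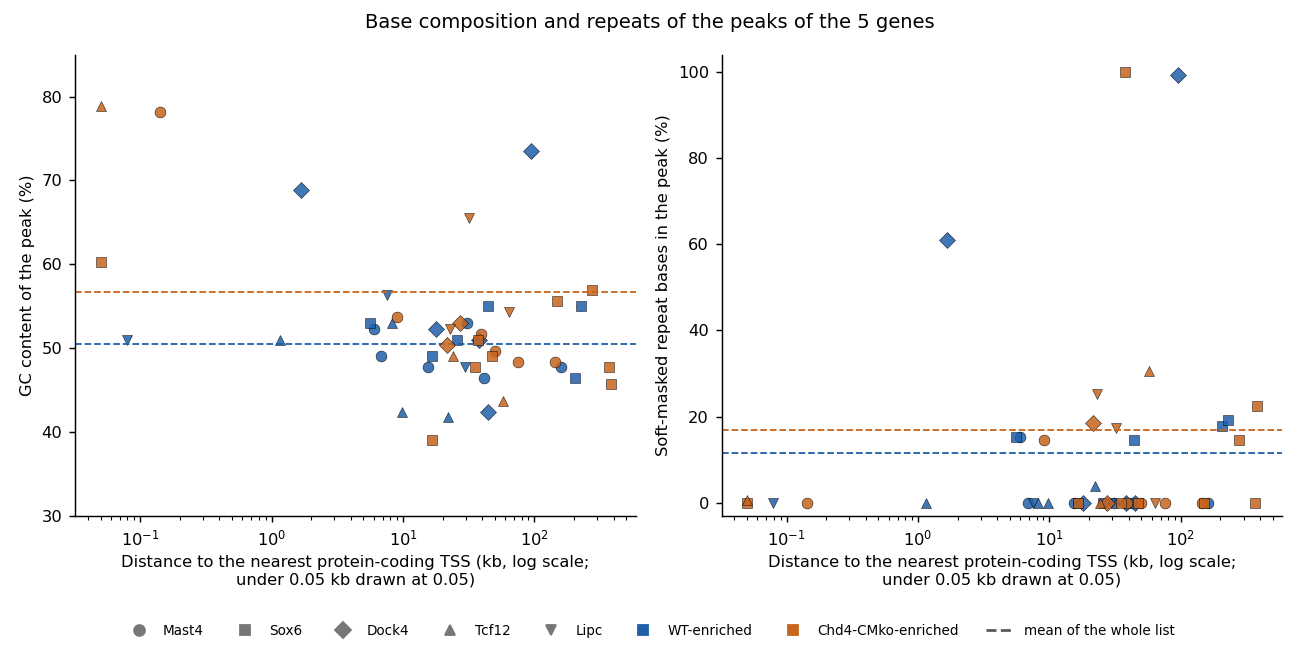
GC content (left, %) and share of soft-masked repeat bases (right, %) of the 47 peaks against the distance to the nearest protein-coding TSS (kb, log scale). Shapes are genes, colours are lists, and dashed lines are the means of the whole lists. The *Mast4* and *Tcf12* promoter peaks stand at the upper left of the GC plot, above 78%, and the WT-enriched *Dock4* peaks at 68.9 and 73.5% GC are also those at 60.9 and 99.3% repeat.

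To describe the sequence content, 14 consensus motifs were searched without mismatch on both strands. For cardiac regulators they were AGATAAG for the GATA factors, AGGTGTGA for the T-box factors (TBX) and TTAAGTG for the NKX2 homeodomain factors, with a 10-base consensus of MEF2, a muscle regulator, that is given by name only. For broadly expressed factors they were ACATTCC for TEAD, the partner of YAP in Hippo signalling, TGANTCA for AP-1, CAGGAAGT for ETS factors, GGGNGTGG for KLF factors, TGTTTAC for forkhead (FOX) factors and CCAATCA for NFY, a promoter-binding complex. For the insulator protein CTCF an 11-base consensus was used, also given by name only. For the families to which TCF12 and SOX6 belong they were the E-boxes CAGCTG and CACCTG, and AACAATG for SOX. At least 1 was present in 10 of 24 WT-enriched peaks of the 5 genes (41.7%), against 48.0% of the whole list. Among the *Chd4-CMko*-enriched peaks it was 15 of 23 (65.2%), against 57.6%. A match is a description of the letters and not evidence of binding.

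The E-box CAGCTG was the most frequent of the 14 strings in the WT-enriched peaks of the 5 genes, as it was in the whole WT-enriched list. E-boxes were the shortest strings, at 6 bases against 7 or more in the others, so this rank sets strings of unlike length together. CAGCTG was present in 5 of 24 (20.8%, Wilson interval 9.24 to 40.5%), against 15.4% of all WT-enriched peaks and 13.2% of all *Chd4-CMko*-enriched peaks. The interval includes both list shares, but 24 peaks from 5 chosen genes are too few to tell such shares apart, so nothing is read from it. Those 5 peaks were 2 each in *Sox6* and *Tcf12* and 1 in *Mast4*. Both *Sox6* peaks held the string at 2 places, 50 and 36 bases apart. In the other list, the *Sox6* peak 240 kb downstream held it at 3 places, 26 and 53 bases apart. The sequences of both WT-enriched *Sox6* peaks are given because they alone of the WT-enriched peaks of the 5 genes hold this E-box at 2 places, a choice made after the values were seen.
Sox6 intron 3 (chr7:115780293-115780443): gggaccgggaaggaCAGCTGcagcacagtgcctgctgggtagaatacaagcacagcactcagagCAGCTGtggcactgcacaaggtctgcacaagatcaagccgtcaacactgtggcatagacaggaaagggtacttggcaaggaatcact
Sox6 intron 7 (chr7:115636497-115636647): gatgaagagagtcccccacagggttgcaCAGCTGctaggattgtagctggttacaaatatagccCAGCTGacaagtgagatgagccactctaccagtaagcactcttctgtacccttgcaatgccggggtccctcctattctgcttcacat

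Other strings were rare in the WT-enriched peaks. GATA was in 2 of 24 (*Tcf12* intron 6 and *Lipc* intron 1; 8.33%, list 4.92%), AP-1 in 2 (both *Mast4*; 8.33%, list 9.0%) and KLF in 2 (*Sox6* intron 5 and *Lipc* intron 1; 8.33%, list 4.59%). SOX was in 1 (4.17%, list 3.06%) and ETS in 1 (*Mast4* intron 1; 4.17%, list 2.62%). The other 8 (TEAD, MEF2, CTCF, CACCTG, TBX, NKX2, NFY and FOX) were in 0 of 24, for which the Wilson upper bound is 13.8%. The shares of the whole WT-enriched list lay below that bound, from 0.291% (TBX) to 7.43% (TEAD), so 24 peaks cannot show a lower share. None of the 5 WT-enriched *Dock4* peaks held any of the 14 strings.

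In the *Chd4-CMko*-enriched peaks each of the 5 genes had a match, and *Sox6*, which had the most such peaks, held the most. E-boxes CAGCTG and CACCTG, AP-1 and KLF were each in 3 of 23 (13.0%), against 13.2, 10.3, 5.08 and 17.7% of the whole list. GATA was in 2, both in *Sox6* introns (8.70%, list 5.45%). TEAD (*Tcf12* intron 3), MEF2 and TBX (both *Sox6* downstream) and NFY (*Dock4* intron 1) were in 1 each (4.35%), against 3.76, 3.26, 1.28 and 11.8% of the list. SOX, ETS, NKX2, FOX and CTCF were in none, and the list shares were 0.955, 2.36, 1.0, 1.11 and 0.285%, all below the Wilson upper bound of 14.3%. In the *Sox6* peak 148 kb downstream the TBX match overlapped the CACCTG match, so these are not independent. The *Mast4* intron 5 peak held the KLF string at 3 places, 36 bases apart.

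The nearest relatives of the 5 genes were described for comparison from family lists. Of 17 relatives, 3 had a WT-enriched peak (*Sox5*, *Tcf4* and *Dock1*), with 5 peaks in all, and 10 had a *Chd4-CMko*-enriched peak, with 31 in all. Among all protein-coding genes 10.8% had 1 or more WT-enriched peaks and 37.4% had 1 or more *Chd4-CMko*-enriched peaks. *Sox5*, the SoxD gene closest to *Sox6* in function and at 954 kb longer than it, had 1 WT-enriched and 7 *Chd4-CMko*-enriched peaks. *Tcf4*, an E protein gene of 346 kb, had 2 and 4, and *Tcf3*, at 24.1 kb, had 0 and 3. *Dock1* (503 kb) had 2 and 5, *Dock2* (557 kb) had 0 and 4, and *Dock3* and *Dock5* had none of either. *Mast1*, *Mast2* and *Mast3* had no WT-enriched peak and 3, 2 and 1 *Chd4-CMko*-enriched peaks. Among the lipase genes, *Liph* had 1 *Chd4-CMko*-enriched peak and *Lipg*, *Lpl*, *Pnlip* and *Lipi* had none of either. The 5 genes were chosen for their WT-enriched peaks and the relatives were not, so the counts were not compared.

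**Figure D4:**
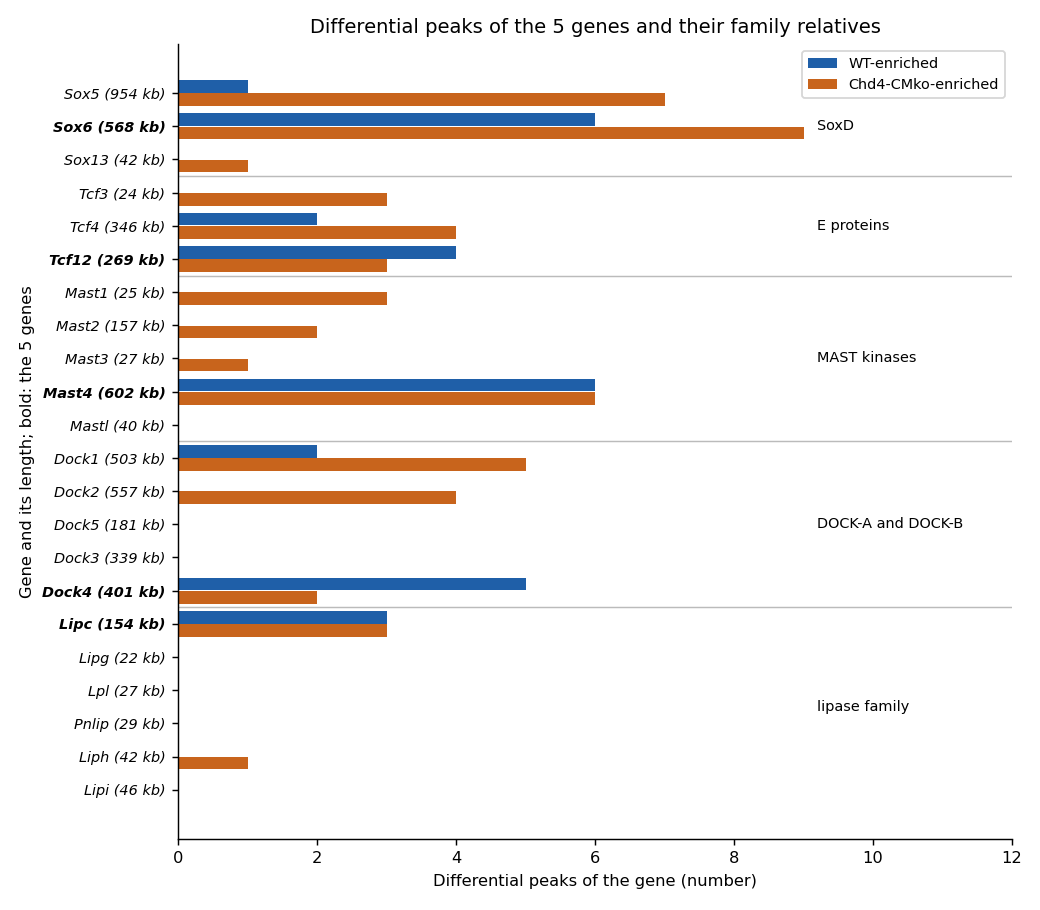
Number of WT-enriched and *Chd4-CMko*-enriched peaks (x axis) of the 5 genes (bold) and their 17 relatives, grouped by family, with gene length in kb. Among the relatives WT-enriched counts ran from 0 to 2 and *Chd4-CMko*-enriched counts from 0 to 7.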

How the data were processed

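Hearts at E10.5 were assayed by ATAC-seq in 4 WT and 4 *Chd4-CMko* samples. HOMER 4.10.3 was the authors' peak caller, on reads placed on mm10 by BWA-MEM, and ChIPseeker 1.20.0 their annotation tool, with a fold-change cutoff for differential peaks, and the submitters' processing notes name BWA and mm10. Duplicate removal, multi-mapping reads, the Tn5 offset and how samples were combined are not given in the sources used here, and each can change which peaks pass. The value used in each deposited list is a peak score made by the authors, with no scale stated.

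Peaks were joined to GENCODE M21 and to the GRCm38.p6 sequence from RefSeq, the same build as mm10, and all peaks lay within the chromosome lengths. Intron and exon numbers are those of the principal transcript, or of another transcript where the peak lies outside it. Distances to a TSS or gene run from the peak's edge, and those from the gene's 5′ end, from the principal *Lipc* TSS and between peaks from its centre. Python 3.11.15, pandas 2.3.3, SciPy 1.17.1, pysam 0.24.0 and matplotlib 3.10.9 were used. Intervals are Wilson 95% intervals. Assignment, motif search and placement were tested on simulated data. The genes named were the 5 genes, other genes with 6 or more WT-enriched peaks, those nearest to their peaks, family relatives, and the genes between *Lipc* and *Tcf12*, named after the values were seen. The rule would also have named the 113 genes with 3 WT-enriched peaks. These, and the others with 4 or 5, were only counted, a choice made after their values were seen. The genes, motifs and family lists were chosen with earlier results of these data known. Alternatives were other assignment rules, a score limit, a repeat limit, 1 motif mismatch and other distances. Some sequences and annotations of these peaks are not reported here.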

Additional observations from a re-analysis of the deposited data

How the results depend on the processing

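The 24 WT-enriched peaks of the 5 genes numbered 19 to 24 under the other assignment rules and 22 without peaks that were 50% or more repeat. They numbered 13 at or above the median score of the list, a limit that removes peaks by construction. The 23 *Chd4-CMko*-enriched peaks numbered 15 inside the gene body only and 6 at or above the median score, and 16 to 24 otherwise. The lowest of these, 16, came from the nearest TSS of any annotated gene with no window, an alternative chosen after seeing the data. WT-enriched peaks with a *Chd4-CMko*-enriched peak nearby numbered 0 within 1 kb, 5 within 10 kb and 0 by overlap. GC content (49.7 to 54.8%) and the share inside the gene (69.2 to 81.8%) moved by less than their spread or interval. The density of WT-enriched peaks was 9.07 per Mb of gene with its flanks and 9.53 per Mb of gene body alone. With 1 mismatch allowed, motif shares rose to between 4.17 and 83.3%. No paired analysis was possible because the lists hold no value per sample, and for the same reason no replicate could be left out. What the lists cannot show is whether a peak differed in each sample, or how strongly.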
